A study of Homo sapiens with 8 samples.

Results

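The genes of the cytosolic ribosomal proteins were examined in 2 prostate cancer cell lines with and without added TRIB1. They were taken by symbol, as RPL or RPS followed by a number (with A or X where it ends the name), together with RPLP0, RPLP1, RPLP2 and RPSA. This gave 77 of the 57905 genes listed, 46 of the large and 31 of the small subunit. All 77 passed the filter on low values.

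Transcripts were measured by RNA sequencing of total RNA in DU145 and PC3, established lines derived from metastases of prostate cancer. Each line received a lentivirus that overexpresses TRIB1, a pseudokinase that brings substrates to the ubiquitin ligase COP1, or a lentivirus without insert as the negative control. The 4 groups (DU145 control, DU145 TRIB1, PC3 control, PC3 TRIB1) hold 2 libraries each, and every group carries a lentivirus. The labels do not say whether the 2 libraries of a group came from separate cultures or infections, and the p-values below therefore reflect only how far these particular libraries differ, a spread that could be technical.

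A ribosome is built from ribosomal RNA and one copy of most of these proteins, with the stalk proteins RPLP1 and RPLP2 as the known exception. Free ribosomal proteins are generally unstable, and their mRNAs belong to the 5′ terminal oligopyrimidine (TOP) class, which starts with a C and a run of pyrimidines and whose translation is controlled by mTOR and LARP1. The levels of these mRNAs in growing cells are generally high. The measurements below are of mRNA alone.

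Levels are in TPM, a transcript's share of a fixed total after scaling by length. Sequencing depth is unknown, since the unit carries no read totals. TRIB1 was listed at 10.1 and 7.94 TPM in DU145 control and 69.4 and 62.3 TPM in DU145 TRIB1, and at 45.1 and 50.8 TPM in PC3 control and 241 and 245 TPM in PC3 TRIB1. Of the epithelial markers, KRT8 was at 233 to 725 TPM and EPCAM at 9.36 to 187 TPM. The prostate marker KLK3 was listed at 0 in 7 of 8 libraries. STAT3, known to be deleted in PC3, was at 96.9 to 143 TPM in DU145 and at 0.127 to 0.502 TPM in PC3. The leukocyte gene PTPRC was at 0.151 to 0.467 TPM. The mitochondrially encoded transcripts held 7.21% of TPM in the first PC3 control library against 5.24% to 5.4% in the other PC3 libraries, and RN7SL transcripts held 3.17% in the second DU145 TRIB1 library against 1.27% to 2.24% in the rest.

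The first bases of 8 of these mRNAs are shown because the results below turn on these genes: RPS12, RPSA and RPL14 rose in PC3, RPS24 and RPL26 differed between the lines, RPS21 was the one that fell in DU145, and RPLP1 and RPL3 did not pass the test for TRIB1 in either line. Each run holds 10 bases before and 20 bases from the RefSeq start (GRCh38.p14), 5′ to 3′ on the gene's strand. Capitals mark the oligopyrimidine tract, defined as a C at the first transcribed base followed without a break by at least 4 bases that are C or T.
RPS12: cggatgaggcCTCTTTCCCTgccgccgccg
RPSA: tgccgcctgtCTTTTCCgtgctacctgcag
RPL14: ggtcttcttcCTTCTCgcctaacgccgcca
RPS24: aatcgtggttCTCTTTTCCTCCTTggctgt
RPL26: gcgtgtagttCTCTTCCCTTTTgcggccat
RPS21: ctagctgcttCCTTTCTCTCTCgcgcgcgg
RPLP1: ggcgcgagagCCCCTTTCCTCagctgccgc
RPL3: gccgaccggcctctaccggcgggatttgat
These windows lie at chr6:132814559-132814588 (plus strand) for RPS12, chr3:39406710-39406739 (plus) for RPSA, chr3:40457329-40457358 (plus) for RPL14 and chr10:78033853-78033882 (plus) for RPS24. The others lie at chr17:8383174-8383203 (minus) for RPL26, chr20:62387093-62387122 (plus) for RPS21, chr15:69452808-69452837 (plus) for RPLP1 and chr22:39319604-39319633 (minus) for RPL3.

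RPS24 had the longest tract of the 8, with 14 bases, and RPL14 the shortest, with 6. The run of RPL3 was shorter than the definition asks. A RefSeq start was listed for 62 of the 77 genes, and 46 of these 62 (74.2%) had at least one start with a tract. Counted by start, a tract was at 59.7% of the 77 listed starts of these genes and at 4.07% of all 35116 listed starts. The 15 genes without a listed start include RPL23, RPL23A, RPL30, RPL37, RPL5, RPL7, RPL8, RPS15A, RPS2 and RPS20. A match describes these letters only, and a missing match says only that they are not at that listed start.

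Mean levels ran from 27.2 to 7822 TPM. The highest by mean over the 4 groups was RPS27, a zinc finger protein of the small subunit, at 7822 TPM, with 6636 to 9477 TPM in the single libraries. RPS21 followed at 6734 TPM, RPL41, the smallest ribosomal protein, at 6205 TPM, RPS24 at 5358 TPM, RPL35 at 4902 TPM and RPS29 at 4732 TPM. Neighbours in this order overlapped in their single libraries. The order also differed between the lines: RPS24 ranked 22 in DU145 control, 3 in PC3 control and 1 in PC3 TRIB1, while RPL41 ranked 2 in DU145 control and 8 in PC3 control.

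The lowest was RPS26, a protein at the mRNA exit of the small subunit, at 27.2 TPM, with 20 to 36.7 TPM in the single libraries. Other low genes were RPL21 at 80.2 TPM, RPL9 at 238 TPM, RPS3A at 432 TPM and RPS4X at 488 TPM. Several of these low levels are uncertain, because near-identical copies have entries of their own. RPL9P8, an RPL9 pseudogene entry, was at 575 TPM on average. Pseudogene entries summed to 244% of the gene's own level for RPL9, 137% for RPL21, 32% for RPS2 and 16.9% for RPS26. They summed to under 5% for the other 73 genes. That count takes in RPSA, but the name pattern used could not match RPSA pseudogenes, so copies of RPSA were not assessed. Gene models of other genes overlapped those of 20 members, 7 on the same and 15 on the opposite strand, and without a known strand setting reads of such pairs cannot be told apart.

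**Figure D1:**
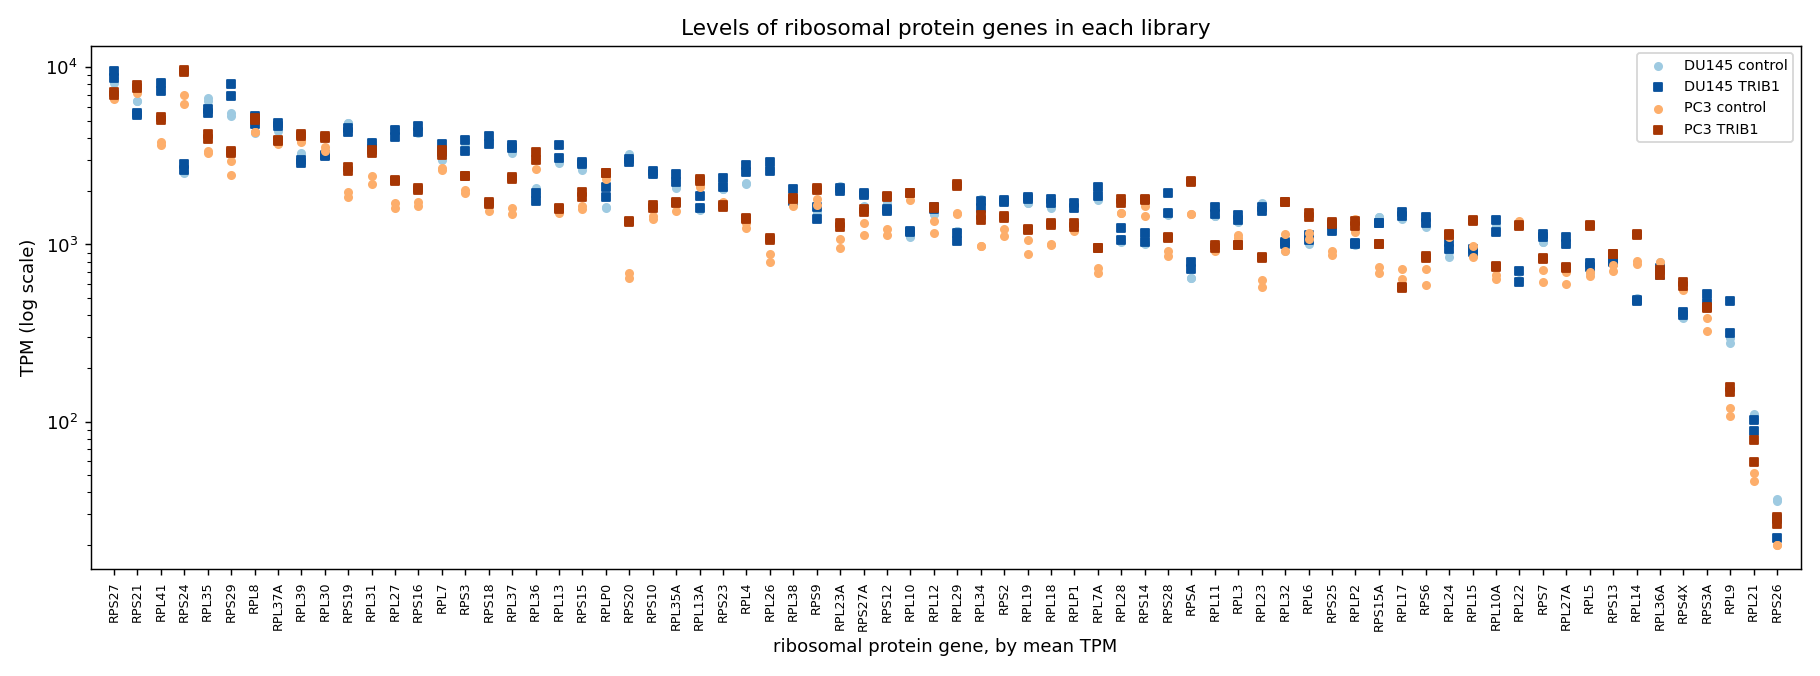
TPM of 72 of the 77 ribosomal protein genes (log axis) in each of the 8 libraries, ordered by mean level; colours and symbols give the 4 groups. RPS27 is at the left end and RPS26 at the right, at 20 to 36.7 TPM, and the 2 lines stand far apart for RPS24, RPS20 and RPL26.

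Together the 77 genes held 16.7% and 16.5% of all TPM in the DU145 control libraries and 17.7% and 16.7% in DU145 TRIB1. In PC3 they held 13.4% and 12.8% in the controls and 15.6% and 15.9% with TRIB1. Both PC3 TRIB1 libraries thus lay above both PC3 controls and below all DU145 libraries, whereas the second DU145 TRIB1 library lay at the level of the DU145 controls. The group means were 16.6% ± 0.14 (SD, n = 2) in DU145 control, 17.2% ± 0.697 in DU145 TRIB1, 13.1% ± 0.447 in PC3 control and 15.7% ± 0.188 in PC3 TRIB1. In PC3 the large subunit genes went from 7.36% ± 0.256 to 8.74% ± 0.104 and the small subunit genes from 5.71% ± 0.19 to 6.99% ± 0.0843. Since TPM are shares, a higher share of these genes lowers that of others, and in bulk RNA fewer cells of a type and less RNA per cell cannot be told apart.

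**Figure D2:**
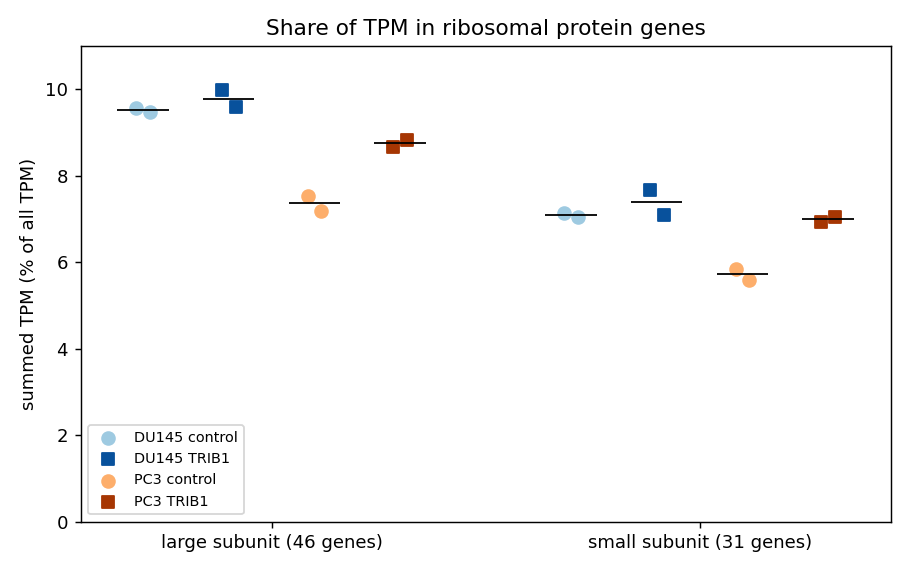
Summed TPM of the large and small subunit genes as a percentage of all TPM; each point is a library and each line the mean of 2. In both subunits the 2 PC3 control libraries are lowest. The PC3 TRIB1 libraries lie below all DU145 libraries in the large subunit, while in the small subunit the second of them, at 7.05%, lies just above the second DU145 control library, at 7.04%.

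In PC3, many ribosomal protein transcripts were higher with TRIB1. Of the 77 genes, 39 (50.6%) rose at a Benjamini-Hochberg adjusted p below 0.05 by limma and 0 fell, where 7.67% of all 25982 genes tested rose and 9.33% fell. At an unadjusted p below 0.05 there were 53 in either direction (68.8%), against 30.6% of all genes. The median log2 change was 0.29, against -0.01 over all genes tested, and 71 of the 77 estimates were above 0. These estimates come from the same libraries and are not independent observations. Between the 2 PC3 control libraries, 59 of the 77 genes were higher in the first, with a median log2 difference of 0.09. Between the 2 PC3 TRIB1 libraries, 27 were higher in the first, with a median of -0.02. The changes with TRIB1 were small: only RPS20 passed a log2 change of 1 as well, the cutoff of the series' design, which 2.52% of all genes passed upward. Among the 1467 protein-coding genes outside the set that averaged 100 TPM or more, 16.4% rose and 24.8% fell, with a median of -0.09, and 59% were below an unadjusted p of 0.05.

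The count of 39 changed with single libraries. It was 21 without either DU145 control library, 15 without the first and 13 without the second PC3 TRIB1 library, 26 without the second PC3 control library and 12 with no filter on low genes. RPL5, RPL14, RPL15, RPL18, RPL23, RPL29, RPL34, RPL37, RPS12, RPS15A, RPS20, RPS25 and RPSA passed whichever single library was left out.

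RPL5 and RPL11 bind 5S ribosomal RNA together, and the particle they form can hold the ubiquitin ligase MDM2. RPL5, listed at chromosome 1, 93297582 to 93307481, was at 701 and 665 TPM in PC3 control and at 1287 and 1271 TPM with TRIB1. Both TRIB1 libraries were far above both controls, a 1.87-fold rise (log2 change 0.90 ± 0.05 SE, adjusted p = 0.00095). Its partner RPL11 stood at 1009 and 923 TPM in PC3 control and at 988 and 955 TPM with TRIB1, with the groups overlapping (log2 change 0.01, adjusted p = 0.985). The ratio of RPL5 to RPL11 was accordingly 0.695 and 0.721 in PC3 control and 1.3 and 1.33 with TRIB1, and 0.481 to 0.506 in the 4 DU145 libraries.

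Of the genes for the decoding site and the head of the small subunit, 6 of 8 rose in PC3. RPS20, a protein of the head, was at 688 and 647 TPM in PC3 control and at 1365 and 1340 TPM with TRIB1. Its groups were far apart, and it doubled (2.02-fold, log2 change 1.02 ± 0.05 SE, adjusted p = 0.000761). RPS12, at the beak of the head, was at 1215 and 1137 TPM in control and at 1888 and 1854 TPM with TRIB1, again without overlap (1.59-fold, adjusted p = 0.00133). RPS3, RPS15, RPS16 and RPS19 rose 1.22-fold, 1.18-fold, 1.22-fold and 1.39-fold. These 4 calls were lost without single libraries: 6 of the 8 for RPS3 and RPS16 (adjusted p up to 0.202), all 8 for RPS15 (up to 0.201), and the second PC3 TRIB1 library for RPS19 (0.0557). RPS18 and RPS23, which lines the decoding centre, did not pass, with log2 changes of 0.09 and -0.04.

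On the mRNA exit side of the small subunit, RPSA alone of 5 genes rose. RPSA, which also encodes the precursor of a laminin receptor, is listed at chromosome 3, 39448180 to 39454033, and was at 1485 and 1494 TPM in PC3 control and at 2277 and 2251 TPM with TRIB1. The groups did not overlap (1.52-fold, log2 change 0.60 ± 0.05 SE, adjusted p = 0.00276). RPS26, low in every library, was at 20 and 20.1 TPM in control and at 26.3 and 28.8 TPM with TRIB1, which did not pass (adjusted p = 0.0608). Under upper-quartile scaling 4 of these 5 genes rose.

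In the large subunit, 5 of 9 genes at the peptide exit tunnel and its mouth rose, among them RPL31 (1.46-fold, lost without the second PC3 TRIB1 library, adjusted p = 0.0582) and RPL23A (1.28-fold, lost without 5 single libraries, up to 0.13). RPL17, whose gene product lies at the tunnel mouth, pointed the other way, at 727 and 638 TPM in control and 575 and 567 TPM with TRIB1 (log2 change -0.25, adjusted p = 0.0612). RPL32 was at 1145 and 920 TPM in control and at 1733 and 1737 TPM with TRIB1, a 1.69-fold rise (adjusted p = 0.00815) that did not pass without either PC3 TRIB1 library (adjusted p up to 0.0641). RPL37 rose 1.54-fold, from 1605 and 1486 TPM to 2416 and 2349 TPM, with no overlap between the groups (adjusted p = 0.00292).

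None of the 3 genes of the stalk that recruits the elongation factors passed the test, and 0 were below an unadjusted p of 0.05 by limma. RPLP0, which anchors it, was at 2525 and 2327 TPM in PC3 control and at 2532 and 2519 TPM with TRIB1. RPLP1 was at 1321 and 1188 TPM against 1256 and 1314 TPM, and RPLP2 at 1392 and 1181 TPM against 1270 and 1358 TPM. The control and TRIB1 libraries of all 3 genes overlapped, and the log2 changes of 0.06, 0.04 and 0.03 did not pass (adjusted p from 0.647 to 0.859). RPL3, a core protein near the peptidyl transferase centre, was at 1081 and 1135 TPM in control and at 990 and 993 TPM with TRIB1 (log2 change -0.16, adjusted p = 0.0919), and RPL36A had a log2 change of -0.08 that turned to 0.02 under upper-quartile scaling and to 0.05 without the second PC3 control library.

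By start sequence, the median log2 change in PC3 was 0.24 among the 46 genes with a tract and 0.32 among the 16 without. Of these, 20 and 7 rose. The 15 genes without a listed start, RPS20 and RPL5 among them, are in neither class, so only part of the 39 that rose is counted. By transcript length in GENCODE 29, 13 of 22 members under 600 bases rose, 26 of 47 from 600 to 1000 bases, and 0 of 7 from 1000 to 2000 bases. Protein-coding genes outside the set, under 600 bases and at 100 TPM or more, rose in 21.4% and fell in 18.6% of cases. Epithelial markers moved in the same libraries: KRT8 rose 2.92-fold and EPCAM 3.43-fold in PC3 with TRIB1, and their part in these changes was not tested.

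**Figure D3:**
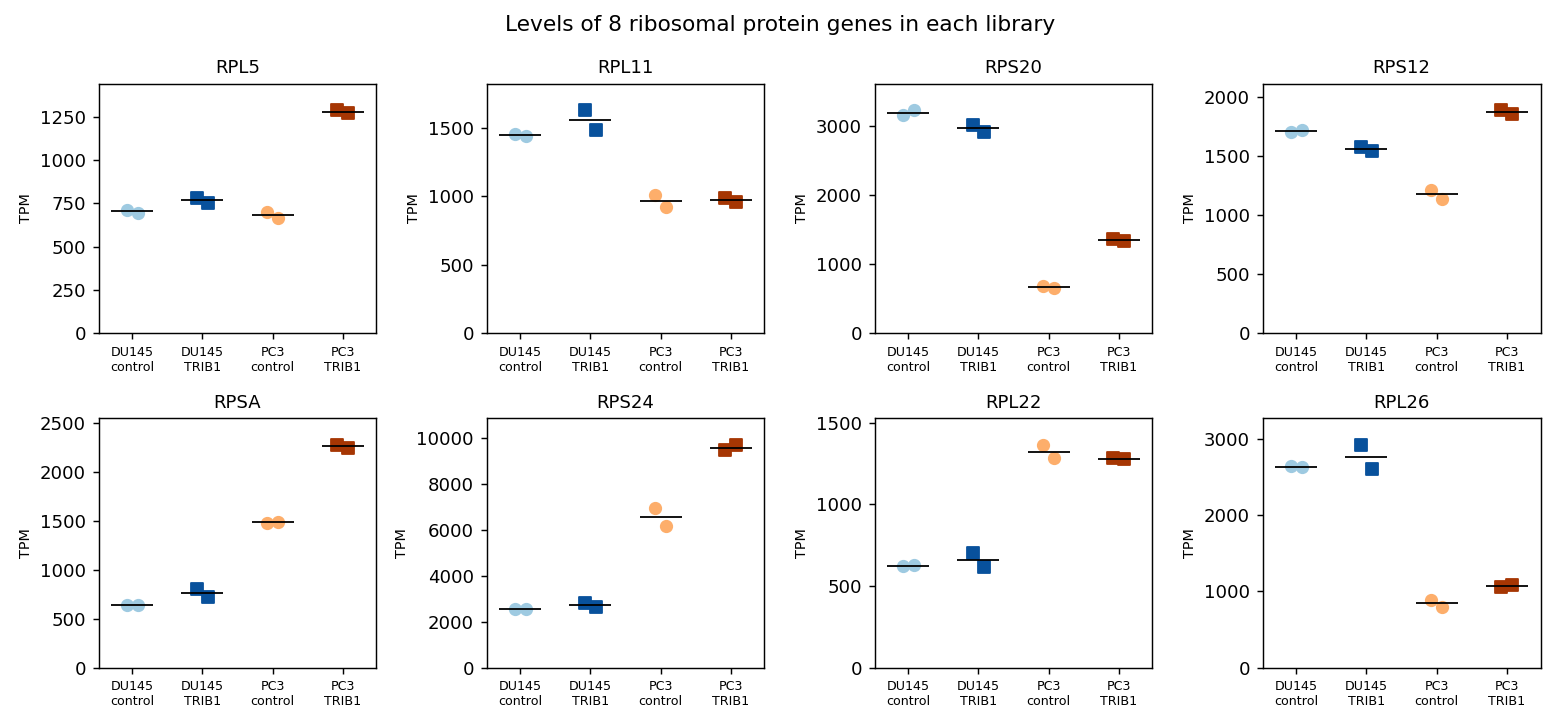
TPM of 8 ribosomal protein genes by group (axes from 0); each point is a library and each line the mean of 2. RPL5, RPS20, RPS12, RPSA and RPS24 are higher in both PC3 TRIB1 libraries than in both PC3 controls, while RPL11 overlaps between PC3 control and TRIB1, and RPL22 is higher in all PC3 than in all DU145 libraries.

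In DU145, most ribosomal protein transcripts did not pass the test. By limma 0 of the 77 rose and 1 fell, where 0.712% of all genes tested rose and 2.01% fell, and 20 (26%) were below an unadjusted p of 0.05 in either direction. That share lay between the 17.7% of all genes and the 33.3% of the other protein-coding genes that averaged 100 TPM or more. The median log2 change was 0.08, against -0.04 over all genes. RPS21, a small protein of the small subunit, was at 6461 and 6448 TPM in control and at 5489 and 5410 TPM with TRIB1. Both TRIB1 libraries were lower, 1.18-fold (log2 change -0.24 ± 0.04 SE, adjusted p = 0.0486), and the call was lost when any of the 8 libraries was left out (adjusted p from 0.0671 to 0.312).

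The genes nearest to a rise in DU145 were RPS2, at the mRNA entry, RPLP1 and RPL4, whose loop lines the exit tunnel. RPS2 was at 1449 and 1437 TPM in control and at 1778 and 1733 TPM with TRIB1 (log2 change 0.28, adjusted p = 0.0567). RPLP1 was at 1320 and 1319 TPM against 1719 and 1608 TPM (0.33, adjusted p = 0.0656), and RPL4 at 2233 and 2188 TPM against 2810 and 2578 TPM (0.28, adjusted p = 0.0696). The groups did not overlap in any of the 3, and all 3 passed under median-of-ratios scaling, with adjusted p from 0.03 to 0.0493. Downward, RPS26 went from 36.7 and 35.7 TPM to 28.1 and 22.1 TPM (log2 change -0.52, adjusted p = 0.0948), and RPL35 had a log2 change of -0.22 (adjusted p = 0.107). With the test run on the 14577 protein-coding genes of GENCODE 29 alone, a setting chosen after seeing the data, 9 members rose and 2 fell. The share of all genes that passed in that run is not given here, so these counts cannot be set against it.

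The test of the difference between the lines, the DU145 change minus the PC3 change, was lower for 23 of the 77 genes (29.9%) and higher for 0, where 5.36% of all genes were lower and 4.01% higher. At an unadjusted p below 0.05 there were 39 (50.6%), against 25.9% of all genes and 46.5% of the other protein-coding genes at 100 TPM or more. Of those abundant genes, 11.4% were lower and 11.5% higher at an adjusted p below 0.05. The median difference was -0.22, against -0.03 over all genes. RPS20 had a difference of -1.13 ± 0.07 SE (adjusted p = 0.00217), being at 3165 and 3230 TPM in DU145 control and at 3021 and 2915 TPM in DU145 TRIB1. RPS12 followed with -0.80 (adjusted p = 0.00416), from 1702 and 1720 TPM to 1579 and 1547 TPM in DU145, and RPL5 with -0.78 (adjusted p = 0.00469), from 711 and 694 TPM to 783 and 749 TPM. In these 3 genes the PC3 libraries moved apart far more than the DU145 libraries.

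RPS26 (-0.96, adjusted p = 0.0266), RPL32 (-0.67, adjusted p = 0.0468) and RPL29 (-0.64, adjusted p = 0.011) also differed, but RPS26 and RPL32 lost the call without 6 single libraries (adjusted p up to 0.159) and RPL29 without 3 (up to 0.058). RPL29, a protein of the large subunit surface, went from 1484 and 1499 TPM to 2135 and 2191 TPM in PC3, and from 1196 and 1185 TPM to 1049 and 1164 TPM in DU145. RPL5, RPL14, RPS12, RPS15A and RPS20 kept the call whichever library was left out. The count of 23 was 5 without either DU145 control library, 7 without the first and 5 without the second PC3 TRIB1 library, and 5 with no filter on low genes. RPL17 (0.33, adjusted p = 0.1), RPLP1 (0.30, adjusted p = 0.11) and RPL3 (0.23, adjusted p = 0.119) lay highest on the other side and did not pass.

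**Figure D4:**
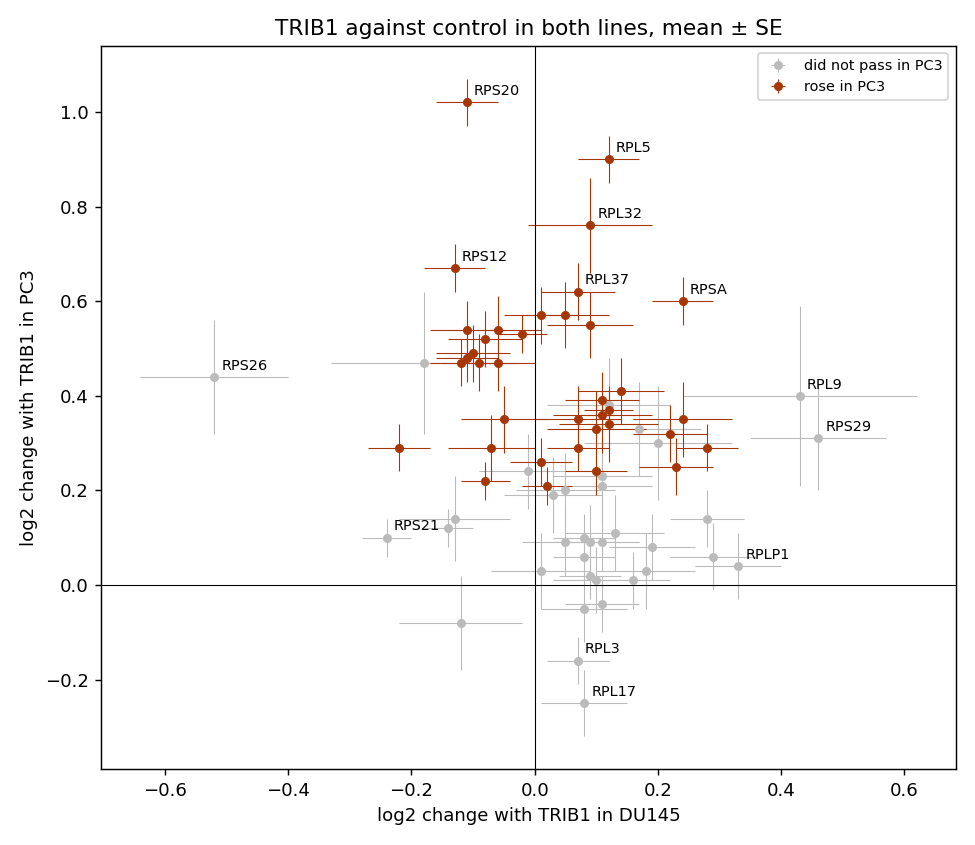
Log2 change with TRIB1 in DU145 (x) and in PC3 (y) for 72 of the 77 genes, with standard errors; red points rose in PC3. The points spread upward, to 1.02 for RPS20, while 1 gene fell and 0 rose in DU145.

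Without TRIB1 the lines differed gene by gene. In control PC3 against control DU145, 19 genes (24.7%) were higher and 45 (58.4%) lower, where 18.6% of all genes were higher and 28.4% lower. Of the other protein-coding genes at 100 TPM or more, 39.9% were higher and 33.5% lower. The median log2 difference was -0.33, against -0.18 over all genes. With median-of-ratios scaling, which moves the median over all genes to 0.00, the split was 27 higher and 35 lower with a median of -0.10. Past a log2 difference of 1 there were 3 higher and 16 lower, against 9.78% and 15.7% of all genes. This comparison shares the PC3 and DU145 control libraries with those above.

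RPS24, a small subunit protein needed for processing of ribosomal RNA and mutated in Diamond-Blackfan anaemia, was 2.55-fold higher in PC3 (log2 difference 1.35 ± 0.07 SE, adjusted p = 4.25e-05). It was at 2543 and 2580 TPM in DU145 control and at 6939 and 6170 TPM in PC3 control, and made up 3.56% and 3.67% of the small subunit TPM in DU145 and 11.9% and 11.1% in PC3. With TRIB1 it reached 9464 and 9693 TPM in PC3, a 1.46-fold rise (adjusted p = 0.00613) that was lost without either PC3 TRIB1 library (adjusted p up to 0.0641). RPSA was at 646 and 647 TPM in DU145 control and 2.3-fold higher in PC3 control.

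RPL22, an RNA-binding protein at the tunnel mouth, was at 621 and 626 TPM in DU145 control and at 1362 and 1282 TPM in PC3 control, 2.12-fold higher (adjusted p = 0.000106). Its paralog RPL22L1 was at 102 and 109 TPM in DU145 control and at 102 and 89.1 TPM in PC3 control, so that the ratio of RPL22 to RPL22L1 was 6.09 and 5.73 in DU145 and 13.4 and 14.4 in PC3. RPL10 and RPL14 were 1.67-fold and 1.6-fold higher in PC3. The groups of these genes did not overlap.

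RPS20 was the furthest the other way, 4.78-fold lower in PC3 control than in DU145 control (log2 difference -2.26 ± 0.05 SE, adjusted p = 3.4e-06). It made up 4.43% and 4.59% of small subunit TPM in DU145 control and 1.18% and 1.16% in PC3 control. RPL26, at the tunnel mouth, was at 2642 and 2628 TPM in DU145 control and at 885 and 800 TPM in PC3 control, 3.13-fold lower. RPL23, another protein that binds MDM2, was 2.83-fold lower, RPL27 2.69-fold, RPS16 2.54-fold and RPS19, the gene most often mutated in Diamond-Blackfan anaemia, 2.53-fold.

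By role, all 8 genes of the decoding site and head were lower in PC3, from RPS20 to RPS23 (log2 difference -0.28, lost without 3 single libraries, adjusted p up to 0.0863), and 7 of them with median-of-ratios scaling. At the exit tunnel 7 of 9 were lower and RPL22 and RPL39 higher. In the stalk, RPLP0 (1.5-fold) and RPLP2 (1.27-fold, lost without either DU145 control library, adjusted p up to 0.0978) were higher and RPLP1 did not pass. RPL5 did not pass (log2 difference -0.04 ± 0.05 SE, adjusted p = 0.525), while RPL11 was 1.5-fold lower in PC3.

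By chromosome, 5 of the 6 members on chromosome 17 (RPL26, RPL23A, RPL23, RPL19, RPL27 and RPL38) were lower in PC3, with a median of -1.25, against -0.30 over the 864 other protein-coding genes tested there. RPL38 did not pass. Of the 15 chromosomes with 3 or more members, 5 had all of their members lower and 0 had all higher. They were chromosomes 2, 6 and 9 with 4 members each and chromosomes 4 and 16 with 3 each. Their member medians were -0.53, -0.87, -0.97, -0.86 and -0.92, against -0.03, -0.28, -0.86, -0.17 and -0.26 for other protein-coding genes there. Higher members were most frequent on X (3 of 4, median 0.38, other genes 0.50), chromosome 3 (4 of 7 with 1 lower, 0.32, other genes 0.11) and chromosome 19 (6 of 12 with 5 lower, 0.20, other genes -0.11). Copy number was not measured here, and its part in these differences was not tested.

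**Figure D5:**
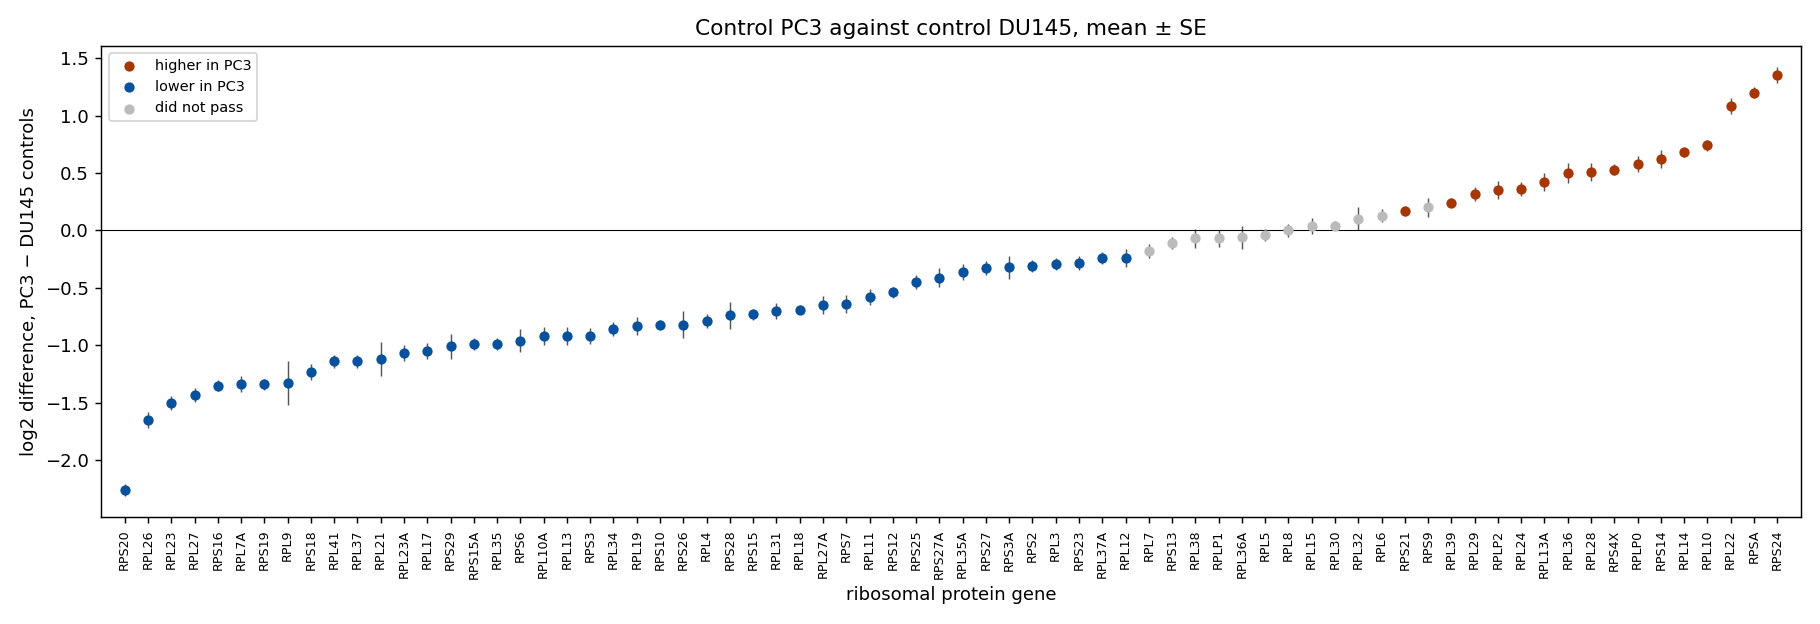
Log2 difference of PC3 control minus DU145 control for 72 of the 77 genes, with standard errors, in order of size; red is higher and blue lower in PC3 at adjusted p below 0.05, grey did not pass. The differences run from -2.26 for RPS20 to 1.35 for RPS24.

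Ribosomal proteins whose symbols fall outside the naming rule varied as well. FAU, a fusion of a ubiquitin-like protein with RPS30, was at 934 and 821 TPM in PC3 control and at 1309 and 1352 TPM with TRIB1, a 1.52-fold rise (adjusted p = 0.00451), and its change differed from that in DU145 (-0.66, adjusted p = 0.015, lost without 5 single libraries, up to 0.0697). RACK1, a scaffold protein on the small subunit head that is listed as GNB2L1, had a log2 change of 0.03 in PC3 and did not pass. Among the variant paralogs, RPL36AL rose 1.14-fold in PC3 (adjusted p = 0.0352, lost without any of the 4 PC3 libraries), RPS27L was 1.88-fold lower in PC3 control than in DU145 control, RPL26L1 was 1.43-fold higher, and RPL7L1 was 1.23-fold lower (lost without 6 single libraries, adjusted p up to 0.128). RPL39L did not pass in any comparison. RPL3L lay below the filter at 0.194 to 0.437 TPM, and RPL10L was listed at 0 in all 8 libraries.

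The counts of the following lists stand beside 7.67% of all genes that rose and 9.33% that fell in PC3, and 0.712% and 2.01% in DU145. A list of 15 further genes with TOP mRNAs held translation factors and also NPM1, HNRNPA1, NAP1L1 and TPT1. Of these 15, 10 (66.7%) rose and 0 fell in PC3, with a median of 0.32. They included EEF1B2 (1.52-fold, adjusted p = 0.00674), EEF1A1 (1.34-fold, adjusted p = 0.00905) and EEF1G (1.34-fold, adjusted p = 0.0126). All 3 encode subunits of the elongation factor complex that delivers aminoacyl-tRNA, and each call was lost without either PC3 TRIB1 library. In DU145, 0 of the 15 rose or fell, with 3 (20%) below an unadjusted p of 0.05, against 17.7% of all genes. Of 9 host genes of small nucleolar RNAs, 3 rose in PC3, and SNHG5 went from 104 and 101 TPM to 170 and 164 TPM (1.62-fold, adjusted p = 0.00147).

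Among genes that make ribosomes, some rose and others fell. In PC3, 10 of 40 assembly factors (25%) rose and 1, NHP2, fell (2.5%, adjusted p = 0.0292). The NHP2 call was lost without 5 single libraries (up to 0.126). SBDS, which releases EIF6 from the large subunit, rose 1.44-fold (adjusted p = 0.0138) and lost the call without the second PC3 control or the first PC3 TRIB1 library (up to 0.0744). Of 15 genes for RNA polymerase I, 5 (33.3%) rose and 2 (13.3%) fell, among them TAF1D (1.6-fold higher) and TAF1C (1.73-fold lower), both of its promoter factor SL1. In DU145, 1 of the 40 assembly factors (EIF6, adjusted p = 0.0475) and 1 of the 15 polymerase genes (TAF1A, adjusted p = 0.0417) fell and 0 rose, calls lost without 7 and 6 of the 8 single libraries. The share of assembly factors that fell, 2.5%, was near the 2.01% of all genes. Of 12 genes that control ribosomal protein synthesis, 0 rose and 1 (8.33%) fell in PC3, below the 9.33% of all genes that fell. This gene was MTOR, 1.52-fold lower, from 24.2 and 22.7 TPM to 16.9 and 13.4 TPM (adjusted p = 0.0302 by limma). Its call was lost without 7 of the 8 single libraries. MYC, which drives ribosome production, was at 138 and 178 TPM in PC3 control and at 193 and 189 TPM with TRIB1 and did not pass.

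Of 8 genes of 5S particle assembly and the MDM2 pathway, 2 rose in PC3. CDKN1A, the cell cycle inhibitor p21, rose 1.98-fold (adjusted p = 0.00134), and RPF2, which brings the 5S particle to the large subunit, 1.41-fold (adjusted p = 0.0344, lost without 7 of the 8 single libraries). CDKN1A fell 1.44-fold in DU145 (adjusted p = 0.0245), a call lost without 5 single libraries (adjusted p up to 0.104), and its changes differed between the lines (adjusted p = 0.00238). GTF3A, the factor that recruits polymerase III to 5S genes, also fell in DU145 (adjusted p = 0.0494, lost without 7 single libraries, up to 0.167).

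The 76 mitochondrial ribosomal protein genes, which belong to a separate ribosome, had a median log2 change of 0.16 in PC3, with 23 higher (30.3%) and 4 lower (5.26%), and MRPS9 rose 2.05-fold (adjusted p = 0.00299). In DU145, 0 of them passed and 11 (14.5%) were below an unadjusted p of 0.05, against 17.7% of all genes. No test compared these lists with the cytosolic genes.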

How the data were processed

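The deposited table holds TPM values for 57905 genes in 8 libraries, with no counts. TopHat2 2.0.14 is named in the submitters' processing notes, beside hg38, edgeR, DESeq and HTSeq, with no roles. How the authors computed TPM, with which annotation and strand setting, is not given in the sources used here. Of 52338 identifiers shared with GENCODE 29, 365 (0.7%) have the listed start, so the build of the listed intervals is not settled and they are printed as listed. Sequence windows are from RefSeq on GRCh38.p14.

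The 25982 genes that averaged 1 TPM or more in any group entered limma 3.58.1 under R 4.3.3, run on log2(TPM + 1) with its trend option, in 1 fit of 4 group means over 8 libraries (4 residual degrees of freedom), with Benjamini-Hochberg adjustment over all genes tested. Rose and fell mean an adjusted p below 0.05, and higher and lower in counts mean the same. Folds are on that log scale and understate low genes. The procedure was also run on simulated data in which as many genes rose as fell. Such runs cannot show how it treats a joint shift of an abundant class of genes.

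Members and lists were chosen with earlier results of these data known, and the role groups after values were seen. The named genes are, per comparison, up to 6 per direction that passed with the largest change (or, under 3, the smallest p), the 6 highest and 6 lowest levels, the stalk genes and RPSA, the proteins and paralogs outside the naming rule, and up to 3 per list by smallest p. RPL11, RPS3, RPS15, RPS16, RPS18, RPS23, RPL31, RPL23A, RPL38, RPL39, RPL19 and the genes listed only for passing without any single library were added after their values were seen. Some genes that the rule names are not reported here, and 5 members are left out of the plots of single genes but stand in every count. Alternatives were pseudocount, filter, scaling, gene set, single lines, a replicate block and leaving out each library, where a lone library was assumed to vary like the other groups. Replicate numbers did not pair the libraries: deviations of same-numbered libraries correlated at -0.0415 to 0.0137.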

Additional observations from a re-analysis of the deposited data

Results flagged for a closer look

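The change with TRIB1 in DU145 differed from that in PC3 by limma's interaction test (adjusted p below 0.05) in 23 genes, each with a lower value in DU145. As log2 differences (DU145 change minus PC3 change), small subunit genes gave -1.13 for RPS20, -0.96 for RPS26, -0.80 for RPS12, -0.60 for RPS19, -0.59 for RPS15A, -0.56 for RPS25, -0.45 for RPS24, -0.37 for RPSA and -0.34 for RPS21. Large subunit genes gave -0.78 for RPL5, -0.67 for RPL32, -0.64 for RPL29, -0.61 for RPL31 and RPL34, -0.59 for RPL23, -0.56 for RPL37 and RPL41, -0.55 for RPL14, -0.54 for RPL27, -0.52 for RPL15, -0.51 for RPL35, -0.30 for RPL30 and -0.26 for RPL39. Of these, RPL5, RPL14, RPS12, RPS15A and RPS20 passed without any single library.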

How the results depend on the processing

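In PC3 the count that rose was 12 with no filter and 25 with the PC3 libraries alone, and 13 to 39 when single libraries were left out. The count that fell there was 1 with a 5 TPM filter or the table's protein-coding genes, 2 with GENCODE 29 protein-coding genes, and 0 to 1 without single libraries. The PC3 median was 0.35 with median-of-ratios, 0.39 with upper-quartile scaling, 0.34 when rescaled over the other genes, and 0.23 to 0.31 without single libraries. RPL36A turned to 0.02 with upper-quartile scaling and ranged from -0.21 to 0.05 without single libraries, above 0 without the second PC3 control library.

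In DU145 the count that rose was 3 with a 5 TPM filter and with median-of-ratios or upper-quartile scaling, 7 with the table's and 9 with GENCODE 29 protein-coding genes (the last chosen after seeing the data), and 0 to 2 without single libraries. The count that fell was 2 with either protein-coding set, 0 with a pseudocount of 0.1 or 5 TPM, no filter, either scaling, rescaling over the other genes or DU145 alone, and 0 to 1 without single libraries. The median was 0.15 with median-of-ratios scaling and 0.02 to 0.12 without single libraries. The shares of all genes that passed under these settings are not given here.

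The difference between the lines was lower in 5 genes with no filter and in 5 to 27 without single libraries. It was higher in 2 with the table's and 3 with GENCODE 29 protein-coding genes, and in 0 to 1 without single libraries. For PC3 against DU145 controls the count higher was 12 with no filter, and 14 to 21 without single libraries. That median was -0.10 with median-of-ratios scaling, -0.53 with the table's protein-coding genes, and -0.43 to -0.31 without single libraries.

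With the replicate number as a block, 35 genes rose in PC3, 0 fell in DU145 and 16 differed between the lines, where the numbers do not pair the libraries. Over the single genes named, 586 values kept their direction and side of the threshold, 31 newly passed it, 40 no longer passed and 2 changed sign, and the cause of each change was not tested. With 2 libraries a group and TPM without counts, depth and counting error could not be assessed.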
